A study of Saccharomyces cerevisiae with 4 samples.

Results

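The cytosolic 60S ribosomal protein genes of budding yeast (*Saccharomyces cerevisiae*) were taken as the deposited entries that name 1 ORF whose symbol is RPL followed by digits and an optional A or B, or is *RPP0*, *RPP1A*, *RPP1B*, *RPP2A* or *RPP2B*. This gave 77 genes of 6549 entries, all of them listed in each of the 4 libraries and none at 0 in any. The gene table of the reference strain assembly R64 holds 81 such symbols. *RPL35A* and *RPL35B* appear only as 1 joint entry, and *RPL41A* and *RPL41B* were not analysed here. *RPP1*, which encodes a part of RNase P, is not a ribosomal protein gene and was left out.

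Diploid SK1 cells, a strain background that sporulates efficiently, were compared as homozygous *dbp1Δ::kanMX6* and as wild type. In the deletion the *DBP1* ORF, which encodes a DEAD-box RNA helicase, is replaced from start to stop codon by the kanMX6 drug-resistance cassette. The paper reports that this cassette also lowers translation of the adjacent gene *MRP51*, for a mitochondrial ribosomal protein. It attributes the mutant phenotypes it observed to *MRP51* and not to loss of *DBP1*. The strains compared here thus differ in the *DBP1* ORF and, by the paper's account, in the translation of *MRP51*, whose own sequence is unchanged. In the paper's strain list, wild-type and such deletion diploids alike carry *his3::hisG* and *trp1::hisG*, together with *ura3*, *lys2* and *ho::LYS2*. The listed pairs carry either *leu2::hisG*, or *LEU2* with an epitope-tagged *DED1*. The list does not name the pair that was profiled. Cells were collected 4 h into sporulation medium (potassium acetate with raffinose), which starves them and induces meiosis, after a short exposure to cycloheximide, a drug that stalls translating ribosomes. Ribosome footprints (FP), short pieces of mRNA covered by a ribosome during nuclease digestion, and mRNA were sequenced with 1 library per genotype and assay. No difference between genotypes therefore has a replicate check, and no test was made.

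The large subunit holds the peptidyl transferase center and the tunnel through which the new polypeptide leaves. Most of its proteins are encoded in yeast by a pair of duplicated genes, named A and B, whose products are identical or nearly so. Ribosomal protein genes are transcribed together under control of the TOR and protein kinase A pathways through Rap1, Fhl1, Ifh1 and Sfp1, and they are turned down upon starvation, the condition under which yeast sporulates. Their mRNAs are short and mostly carry introns, which are rare elsewhere in this genome.

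The values are RPKM, mapped reads scaled to the length of the ORF and the size of the library. An RPKM is relative to its library, so the value of a gene also depends on how many reads the other genes take up. Each library pools many cells, so that fewer cells expressing a gene and less RNA per cell cannot be told apart. *DBP1* itself was at 6.9 FP and 2.9 mRNA RPKM in *dbp1Δ::kanMX6*, and at 435.2 FP and 131.5 mRNA RPKM in wild type. Depths inferred from the steps between low values were about 3266000 and 4120000 reads for the *dbp1Δ::kanMX6* and wild-type FP libraries, and 4776000 and 2220000 for the *dbp1Δ::kanMX6* and wild-type mRNA libraries. For an ORF of 500 bases, 1 read is then worth 0.612 and 0.485 RPKM in the FP libraries and 0.419 and 0.901 RPKM in the mRNA libraries, in the same order of genotypes. The median entry was itself higher in *dbp1Δ::kanMX6*, by 0.35 (FP) and 0.37 (mRNA) on the log2 scale. Stage markers also moved with the genotype: of 24 genes of middle meiosis, such as the transcription factor gene *NDT80* and the cyclin gene *CLB1*, 24 had a lower FP value and 23 a lower mRNA value in *dbp1Δ::kanMX6*. Of entries averaging 10 RPKM or more, 1690 of 5453 were lower for FP and 1585 of 5551 for mRNA. The median log2 changes of the middle genes were -1.38 for FP and -0.94 for mRNA, whereas those of 15 early meiotic genes were 0.42 and 0.48. The part of this difference in stage in the values below was not tested.

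All 77 60S genes had a higher FP value and a higher mRNA value in the *dbp1Δ::kanMX6* libraries than in the wild-type libraries. Among all entries averaging 10 RPKM or more over the libraries, 3746 of 5453 were higher for FP and 3956 of 5551 for mRNA. For FP, the median across the 77 genes was 233 RPKM in *dbp1Δ::kanMX6* and 103 RPKM in wild type. For mRNA, it was 494 RPKM in *dbp1Δ::kanMX6* and 191 RPKM in wild type. The median ratio was 2.43-fold for FP (range 1.03 to 16.8) and 2.55-fold for mRNA (range 1.15 to 4.54). At least a 2-fold higher FP value was seen for 60 of the 77 genes, against 15.1% of all entries that averaged 10 RPKM or more over the libraries. A 2-fold or larger rise in mRNA was seen for 64 genes, against 16.6% of entries. None was 2-fold lower, against 8.23% of entries for FP and 4.18% for mRNA. The 77 genes took up 2.08% of the summed FP RPKM in *dbp1Δ::kanMX6* and 0.895% in wild type. For mRNA, they took up 4.10% of the summed RPKM in *dbp1Δ::kanMX6* and 1.71% in wild type. Joint entries that name both copies of a 60S pair were not counted in these shares, which are thus below those of all 60S entries. These are shares of RPKM, which is scaled to length, and not of reads.

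**Figure D1:**
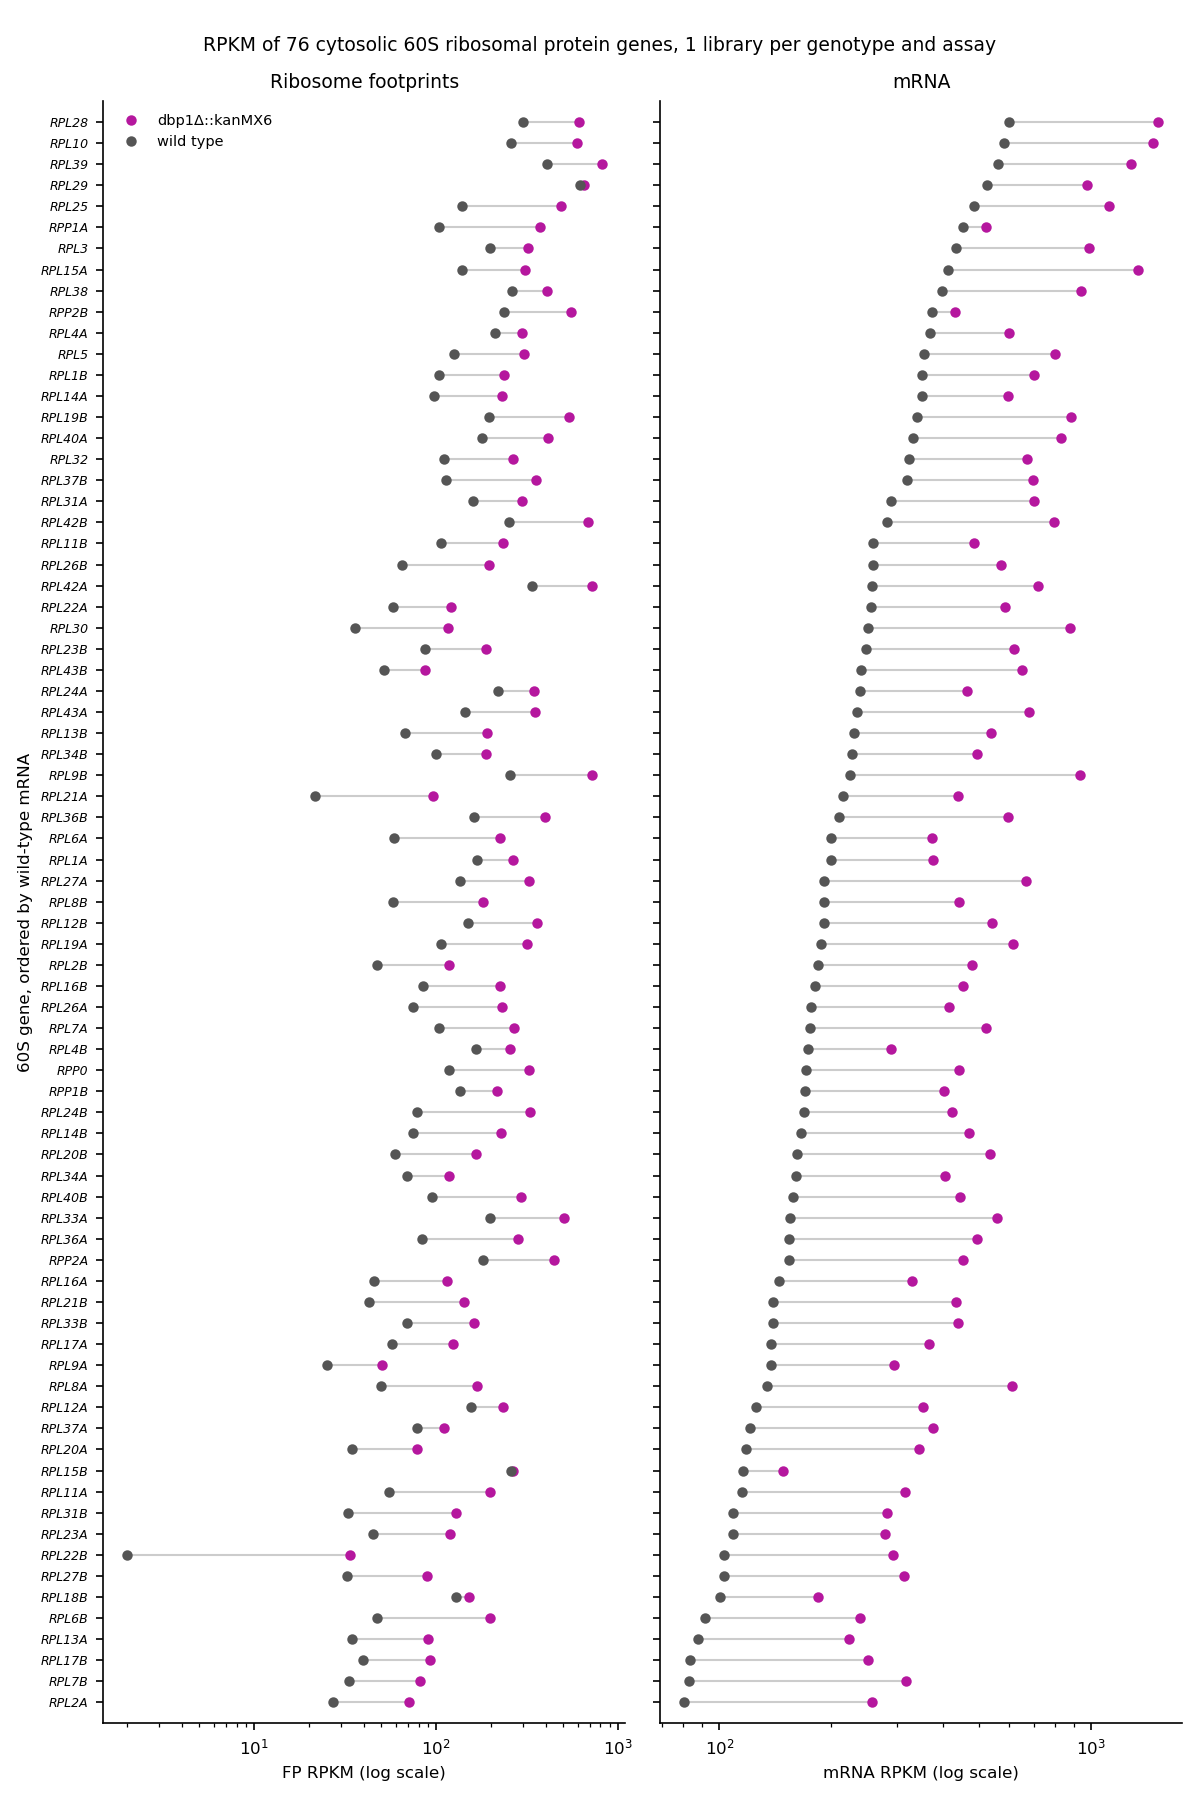
RPKM of 76 of the 77 60S genes (rows, ordered by wild-type mRNA) in the footprint libraries (left) and mRNA libraries (right), on log axes; each point is 1 library and a line joins the genotypes. The *dbp1Δ::kanMX6* point lies to the right of the wild-type point for every gene shown in both panels, with the longest line for *RPL22B* footprints and nearly coinciding points for *RPL15B* and *RPL29* footprints.

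Counted against the median entry instead of against equal RPKM, 74 of the 77 genes lay above it for FP and 74 for mRNA. The exceptions were *RPL15B*, *RPL18B* and *RPL29* for FP and *RPL15B*, *RPP1A* and *RPP2B* for mRNA. With that shift subtracted, the median 60S gene was 0.94 (FP) and 0.98 (mRNA) higher on the log2 scale, and 33 genes (FP) and 35 genes (mRNA) were still at least 2-fold higher, against 6.36% and 7.10% of entries centred in the same way. Next to the 2-fold line, *RPL9A* was just inside for FP at 2.01-fold and *RPL39* just outside, while for mRNA *RPL21A* was just inside at 2.04-fold and *RPL1B* just outside at 1.99-fold. The 56 genes of the small subunit moved by as much, with median log2 changes of 1.24 for FP and 1.41 for mRNA. The 34 *MRPL* genes of the mitochondrial large subunit, which makes a separate set of proteins inside mitochondria, had median log2 changes of -0.12 and 0.04. No difference between the subunits was tested.

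The FP and the mRNA value did not change by the same factor gene by gene. At least a 2-fold higher value in both assays was found for 54 genes, in mRNA alone for 10 genes, in FP alone for 6 genes and in neither for 7 genes (*RPL1A*, *RPL4A*, *RPL4B*, *RPL15B*, *RPL18B*, *RPL24A* and *RPL29*). Across the 77 genes the log2 changes of FP and mRNA had a Pearson r of 0.282 and a Spearman rho of 0.304, against an r of 0.714 across all entries, which span a much wider range of changes. These are descriptions across genes, which share their libraries and are not independent replicates.

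**Figure D2:**
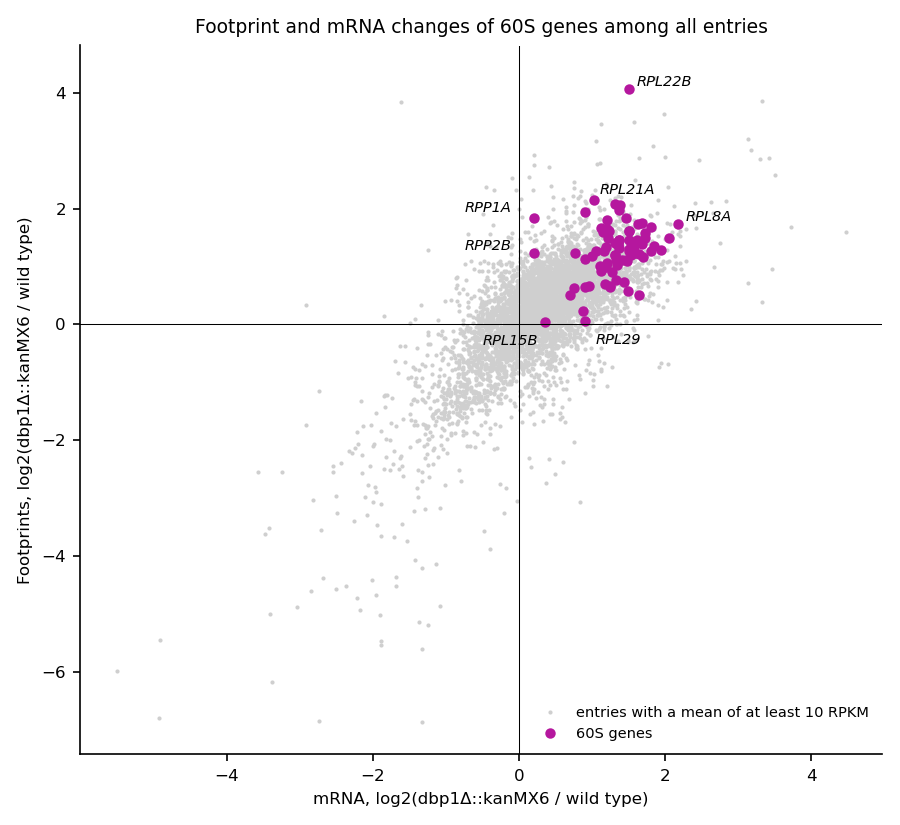
Log2 ratio of *dbp1Δ::kanMX6* to wild type for footprints (vertical) against mRNA (horizontal), for the 60S genes and for entries averaging 10 RPKM or more. The 60S genes form a compact group in the upper right, from which *RPL22B* stands out upward, *RPP1A* and *RPP2B* to the left, and *RPL15B* and *RPL29* downward.

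The levels themselves also set the genes apart. In wild type the highest 60S mRNAs were *RPL28*, *RPL10*, *RPL39*, *RPL29* and *RPL25*, between 483.1 and 599 RPKM, and each is a single-copy gene. The lowest were *RPL2A*, *RPL7B*, *RPL17B*, *RPL13A* and *RPL6B*, between 80.2 and 91.6 RPKM, and each is a copy of a duplicated pair. The 11 single-copy genes had a median mRNA level of 975 RPKM in *dbp1Δ::kanMX6* and 433 RPKM in wild type, and the 66 paired genes 458 RPKM in *dbp1Δ::kanMX6* and 179 RPKM in wild type. Counted entry by entry, the single-copy genes thus had the higher median mRNA level in both genotypes. This sets a whole single-copy gene against a single member of a pair. Summed over the copies, pair mRNA ran from 611 (*RPL6*) to 1511 RPKM (*RPL42*) in *dbp1Δ::kanMX6*. In wild type it ran from 221 (*RPL17*) to 621 RPKM (*RPP1*). Both ranges include the single-copy median, and joint entries are not part of these sums. The median change was 2.31-fold (mRNA) and 2.29-fold (FP) for single-copy genes, and 2.59-fold (mRNA) and 2.47-fold (FP) for paired genes.

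Among the single-copy genes, *RPL28*, in which a mutation is known to make yeast resistant to cycloheximide, had 612.3 FP and 1512.7 mRNA RPKM in *dbp1Δ::kanMX6*, against 301.7 and 599 RPKM in wild type. *RPL10*, which encodes the protein that joins last and completes the peptidyl transferase region, had 591.6 FP and 1460.6 mRNA RPKM in *dbp1Δ::kanMX6*, against 258.4 and 583.5 RPKM in wild type. *RPL3*, encoding another protein that reaches toward this center, had 320.5 FP and 984.7 mRNA RPKM in *dbp1Δ::kanMX6*, against 197.2 and 433.4 RPKM in wild type. For *RPL10* both assays were more than 2-fold apart (2.29 and 2.50), whereas *RPL3* crossed that line for mRNA (2.27) but not for FP (1.63). *RPL32* had 265.8 FP and 672.5 mRNA RPKM in *dbp1Δ::kanMX6*, against 110.6 and 322.3 RPKM in wild type. *RPL38* had 405.9 FP and 934.8 mRNA RPKM in *dbp1Δ::kanMX6*, against 260.2 and 396.9 RPKM in wild type. Its FP ratio of 1.56 was again below its mRNA ratio of 2.36.

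*RPL29*, a small non-essential protein gene, was the single-copy gene with the least change in footprints. It had 648.9 FP RPKM in *dbp1Δ::kanMX6* and 620.5 in wild type, the highest FP level of any 60S gene in the wild-type library, beside 974.7 mRNA RPKM in *dbp1Δ::kanMX6* and 524 in wild type. The FP ratio of 1.05 had a 95% counting interval of at least 0.910 to 1.20, which includes 1. The mRNA ratio was 1.86. Such intervals use reads computed with R64 gene lengths, which contain any intron and any sequence shared with another copy. For genes that have either, the intervals are the narrowest the depth allows. All of them cover counting error between these libraries only.

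*RPL30*, whose product binds its own transcript and limits its splicing and translation, had larger changes. It had 115.7 FP and 875.4 mRNA RPKM in *dbp1Δ::kanMX6*, against 35.9 and 250.1 RPKM in wild type, ratios of 3.22 and 3.50. Its translation efficiency (TE, FP RPKM divided by mRNA RPKM) was 0.132 in *dbp1Δ::kanMX6* and 0.144 in wild type, among the lowest of the 60S genes in both. *RPL30* and *RPL24A* lie next to each other in opposite orientations, transcribed away from each other in the R64 gene order. *RPL24A* was 1.94-fold higher for mRNA and 1.58-fold for FP.

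The 5S ribonucleoprotein brings 5S rRNA into the subunit together with the products of *RPL5* and *RPL11A* or *RPL11B*. *RPL5* had 304.4 FP and 796.9 mRNA RPKM in *dbp1Δ::kanMX6*, against 126 and 354.9 RPKM in wild type. *RPL11A* had 197.6 FP and 315.4 mRNA RPKM in *dbp1Δ::kanMX6*, against 55.2 and 114.7 RPKM in wild type. *RPL11B*, the copy with the higher mRNA level, had 232.7 FP and 484.2 mRNA RPKM in *dbp1Δ::kanMX6*, against 106.6 and 258.9 RPKM in wild type. All 3 genes were more than 2-fold higher for FP (2.18 to 3.58), and *RPL11B* missed that line for mRNA at 1.87-fold.

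Genes for proteins around the tunnel exit, where chaperones and the signal recognition particle meet the nascent chain, formed an even group for mRNA (SD of the log2 change 0.18 over 10 genes, beside 0.37 over all 77). The 10 genes that can be scored (*RPL17*, *RPL19*, *RPL26* and *RPL31*, 2 copies each, with *RPL25* and *RPL39*) were 2.22 to 3.29-fold higher for mRNA, all of them past 2-fold, and 1.86 to 3.93-fold higher for FP, 8 of them past 2-fold. *RPL25*, the docking protein next to the exit, had 486.6 FP and 1115.1 mRNA RPKM in *dbp1Δ::kanMX6*, against 139.5 and 483.1 RPKM in wild type. *RPL39*, a very small protein that lines the tunnel, had 810.6 FP and 1280.7 mRNA RPKM in *dbp1Δ::kanMX6*, against 406.2 and 559.8 RPKM in wild type. The joint *RPL35A* and *RPL35B* entry, also of this region, had 512.7 FP and 1262.5 mRNA RPKM in *dbp1Δ::kanMX6*, against 244.3 and 594.2 RPKM in wild type, ratios of 2.10 and 2.12. An ORF annotated as *BUD19* overlaps *RPL39* and one annotated as *BUD28* overlaps *RPL22A*, and both are listed at 0 in the 4 libraries.

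The 6 genes closest to the peptidyl transferase center (*RPL2A*, *RPL2B*, *RPL3*, *RPL4A*, *RPL4B* and *RPL10*) were 1.63 to 3.21-fold higher for mRNA and 1.42 to 2.62-fold higher for FP. *RPL2A* had 71.3 FP and 257.7 mRNA RPKM in *dbp1Δ::kanMX6*, against 27.2 and 80.2 RPKM in wild type, and *RPL2B* had 117.4 FP and 476.2 mRNA RPKM in *dbp1Δ::kanMX6*, against 47.1 and 184.1 RPKM in wild type. *RPL4A* had 297.4 FP and 599.7 mRNA RPKM in *dbp1Δ::kanMX6*, against 209.4 and 368.6 RPKM in wild type, and *RPL4B* had 255.4 FP and 289.7 mRNA RPKM in *dbp1Δ::kanMX6*, against 165.4 and 172.5 RPKM in wild type. Both *RPL4* copies stayed under 2-fold in both assays, and they were among the 5 genes with the smallest mRNA change. Their product is a protein of the tunnel wall. The joint *RPL4* entry was 2.07-fold higher for FP and 1.67-fold for mRNA.

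The ubiquitin fusion genes *RPL40A* and *RPL40B* encode the same protein, a ubiquitin joined to a ribosomal protein and released by cleavage. *RPL40A* had 412.1 FP and 830.3 mRNA RPKM in *dbp1Δ::kanMX6*, against 179.7 and 331.5 RPKM in wild type. *RPL40B* had 293.2 FP and 443.7 mRNA RPKM in *dbp1Δ::kanMX6*, against 95.1 and 157.3 RPKM in wild type. Both were past 2-fold in both assays. In the group on the tRNA exit side, *RPL42A* had 720.4 FP and 716.8 mRNA RPKM in *dbp1Δ::kanMX6*, against 338.3 and 256.8 RPKM in wild type. *RPL42B* had 687.1 FP and 794.3 mRNA RPKM in *dbp1Δ::kanMX6*, against 250.5 and 281.3 RPKM in wild type.

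The stalk, a flexible arm that recruits and activates the translation GTPases, held the 60S genes whose mRNA differed least between the genotypes. It is built on Rpp0, which binds pairs of the acidic proteins P1 and P2, and Rpl12 sits at its base. *RPP1A* had 372.6 FP and 521.1 mRNA RPKM in *dbp1Δ::kanMX6*, against 103.8 and 451.3 RPKM in wild type. Its mRNA ratio was 1.15, below the median entry, beside an FP ratio of 3.59. *RPP2B* had 551 FP and 428.8 mRNA RPKM in *dbp1Δ::kanMX6*, against 235 and 371.9 RPKM in wild type, with ratios of 1.15 for mRNA and 2.34 for FP.

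Their partner copies had the larger mRNA change. *RPP1B* had 215.3 FP and 400.8 mRNA RPKM in *dbp1Δ::kanMX6*, against 135.2 and 169.3 RPKM in wild type, ratios of 1.59 and 2.37. *RPP2A* had 446.9 FP and 452.4 mRNA RPKM in *dbp1Δ::kanMX6*, against 180.8 and 153.5 RPKM in wild type, ratios of 2.47 and 2.95. In *dbp1Δ::kanMX6* the 4 acidic protein mRNAs thus lay within 400.8 to 521.1 RPKM, and in wild type within 153.5 to 451.3 RPKM. In yeast Rpp1A and Rpp2B are known to pair with each other, as are Rpp1B and Rpp2A.

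Among the other stalk genes, *RPP0* had 324.6 FP and 440.3 mRNA RPKM in *dbp1Δ::kanMX6*, against 118.1 and 170.4 RPKM in wild type, ratios of 2.75 and 2.58. *RPL12A* had 231.8 FP and 352.4 mRNA RPKM in *dbp1Δ::kanMX6*, against 156.3 and 125.1 RPKM in wild type. *RPL12B* had 359.7 FP and 539.9 mRNA RPKM in *dbp1Δ::kanMX6*, against 149.8 and 190.5 RPKM in wild type. The mRNA changes of these copies were nearly equal (2.82 and 2.83-fold), whereas the FP ratio was 1.48 for *RPL12A* and 2.40 for *RPL12B*. In the R64 gene order *RPP1A* and *RPL13A* are neighbors transcribed toward each other. *RPL13A* was 2.55-fold higher for mRNA and 2.61-fold for FP.

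*RPL22B* had the largest FP change of the 60S genes and the second largest ratio among the 5453 entries with an FP ratio. A further 17 entries that averaged 10 RPKM or more were above 0 in the *dbp1Δ::kanMX6* FP library and at 0 in the wild-type one, and have no ratio. It had 33.6 FP RPKM in *dbp1Δ::kanMX6* and 2 in wild type, and 292.1 mRNA RPKM in *dbp1Δ::kanMX6* and 102.6 in wild type. The FP ratio of 16.8 rests on at most 6 inferred reads in wild type, so that its 95% counting interval spans at least 7.01 to 44.9. The mRNA ratio was 2.85 (at least 2.41 to 3.40), near the 60S median. Rpl22, a non-essential protein at the outside of the subunit, is known to bind the intron of *RPL22B* pre-mRNA and hold back its splicing. Spliced and unspliced RNA cannot be separated in values per ORF.

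The other copy, *RPL22A*, had 120.7 FP and 586.8 mRNA RPKM in *dbp1Δ::kanMX6*, against 57.8 and 255.5 RPKM in wild type, ratios of 2.09 and 2.30. *RPL22B* therefore accounted for 21.8% of the footprints of the pair in *dbp1Δ::kanMX6* and 3.34% in wild type, but for 33.2% of its mRNA in *dbp1Δ::kanMX6* and 28.7% in wild type. The TE of *RPL22B* was 0.115 in *dbp1Δ::kanMX6* and 0.0195 in wild type, the lowest of the 60S genes in both. That of *RPL22A* was 0.206 in *dbp1Δ::kanMX6* and 0.226 in wild type.

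The paralog pairs were next compared gene by gene. Both copies are listed for 33 pairs. The changes of the copies differed by a median factor of 1.16 for mRNA and 1.29 for FP, and by at least 1.5-fold in 8 pairs for mRNA and 9 pairs for FP. The smallest gaps for mRNA were those of *RPL12*, *RPL42* and *RPL23*. *RPL23A* had 119 FP and 279.2 mRNA RPKM in *dbp1Δ::kanMX6*, against 45.2 and 108.5 RPKM in wild type, and *RPL23B* had 187.8 FP and 620.8 mRNA RPKM in *dbp1Δ::kanMX6*, against 86.5 and 247.4 RPKM in wild type. The level of these copies thus differed about as much in each genotype, with B above A in all 4 libraries. The largest gaps for mRNA were those of *RPP2* (2.56), *RPL15* (2.53), *RPP1* (2.05), *RPL8* (1.96) and *RPL9* (1.92).

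In 30 of the 33 pairs the copy with more mRNA was the same in both genotypes, and in 29 pairs the copy with more footprints. The order of the mRNAs differed for *RPL8*, *RPL43* and *RPP2*, and that of the footprints for pairs that included *RPL12*, *RPL15* and *RPP1*. The mRNA levels of the copies lay at least 2-fold apart in 9 pairs in *dbp1Δ::kanMX6* and in 16 pairs in wild type. The median gap was 1.54-fold in *dbp1Δ::kanMX6* and 1.87-fold in wild type. For FP, 10 pairs in *dbp1Δ::kanMX6* and 8 in wild type lay at least 2-fold apart, with median gaps of 1.58 and 1.83-fold. Summed over the copies, 29 pairs were at least 2-fold higher for mRNA in *dbp1Δ::kanMX6* and 27 for FP, with sums that ranged from 1.49-fold (*RPP1*) to 3.39-fold (*RPL9*) for mRNA and from 1.45-fold (*RPL15*) to 3.99-fold (*RPL6*) for FP.

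**Figure D3:**
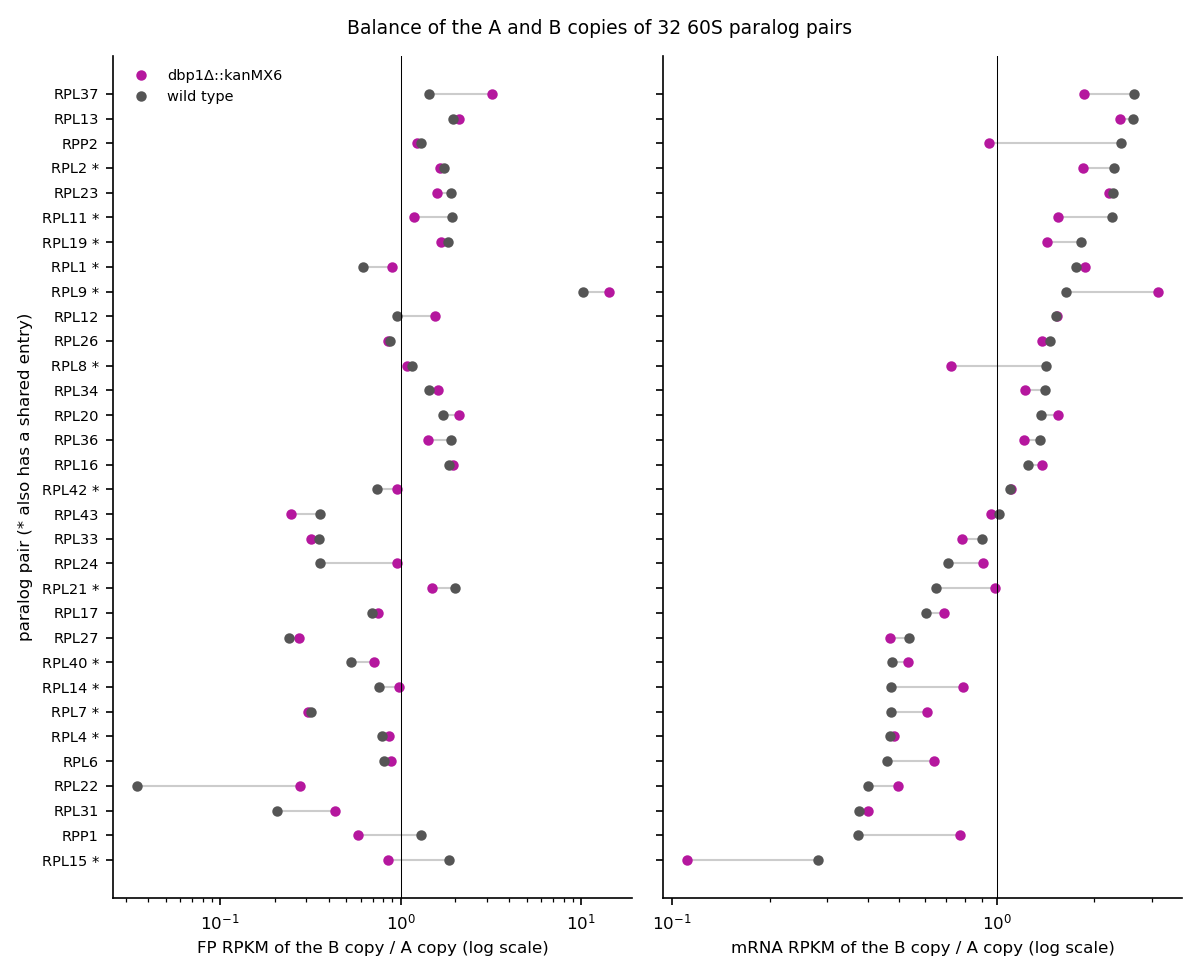
RPKM of the B copy divided by that of the A copy for 32 of the 33 paralog pairs (rows, ordered by the wild-type mRNA ratio), for footprints (left) and mRNA (right) on log axes; each point is 1 library, and an asterisk marks a pair that also has a shared entry. Most pairs keep their point on the same side of 1 in both genotypes, while *RPP2* and *RPL8* cross it for mRNA and *RPL15*, *RPL12* and *RPP1* for footprints.

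*RPL15* was the most unequal pair for mRNA in both genotypes. *RPL15A* had 309.3 FP and 1334.3 mRNA RPKM in *dbp1Δ::kanMX6*, against 138.6 and 412.1 RPKM in wild type. *RPL15B* had 264.5 FP and 148.2 mRNA RPKM in *dbp1Δ::kanMX6*, against 257.1 and 115.7 RPKM in wild type. Of the summed RPKM of these separate entries, *RPL15B* thus gave 10.00% for mRNA in *dbp1Δ::kanMX6* and 21.9% in wild type. For footprints it gave 46.1% in *dbp1Δ::kanMX6* and 65.0% in wild type. The joint *RPL15* entry is not part of these shares. It was 1.20 (*dbp1Δ::kanMX6*) and 1.30 times (wild type) that sum for mRNA, and 1.74 and 1.64 times for FP. The change of *RPL15B* was small in both assays, 1.03-fold for FP with a counting interval of at least 0.916 to 1.16, and 1.28-fold for mRNA.

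*RPL8A* had the largest mRNA change of all 60S genes, 4.54-fold, with 166.8 FP and 610.3 mRNA RPKM in *dbp1Δ::kanMX6*, against 50 and 134.3 RPKM in wild type. *RPL8B* was 2.32-fold higher, with 181.4 FP and 441.5 mRNA RPKM in *dbp1Δ::kanMX6*, against 58.1 and 190.7 RPKM in wild type. The copy with more mRNA was thus A in *dbp1Δ::kanMX6* and B in wild type, while the FP changes of both copies were alike (3.34 and 3.12-fold). *RPL9B* followed for mRNA at 4.14-fold, with 714.2 FP and 931 mRNA RPKM in *dbp1Δ::kanMX6*, against 254.7 and 224.8 RPKM in wild type. *RPL9A* had 50.2 FP and 295.2 mRNA RPKM in *dbp1Δ::kanMX6*, against 25 and 137.2 RPKM in wild type. *RPL7B* came next at 3.83-fold, with 81.7 FP and 317.3 mRNA RPKM in *dbp1Δ::kanMX6*, against 33.3 and 82.9 RPKM in wild type. *RPL7A* had 267.2 FP and 520.1 mRNA RPKM in *dbp1Δ::kanMX6*, against 104.2 and 175.5 RPKM in wild type. Each of these pairs also has a joint entry, whose mRNA was 4.21-fold (*RPL8*), 3.20-fold (*RPL9*) and 3.00-fold (*RPL7*) higher. Joint entries do not tell the copies apart, so the order of the *RPL8* copies rests on their separate entries only.

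For footprints the pairs with the largest gap after *RPL22* (8.05) were *RPL24* (2.67), *RPP1* (2.25), *RPL37* (2.22), *RPL15* and *RPL31* (2.11). *RPL24B*, a copy of the gene for a protein that bridges to the small subunit, had 329 FP and 421 mRNA RPKM in *dbp1Δ::kanMX6*, against 78 and 168.5 RPKM in wild type. *RPL24A* had 344.3 FP and 462.9 mRNA RPKM in *dbp1Δ::kanMX6*, against 218 and 238.5 RPKM in wild type. The copies were thus nearly level in *dbp1Δ::kanMX6* in both assays, and B was the lower in wild type. *RPL37A* had 110.7 FP and 375 mRNA RPKM in *dbp1Δ::kanMX6*, against 78 and 120.7 RPKM in wild type. *RPL37B* had 355.3 FP and 696.9 mRNA RPKM in *dbp1Δ::kanMX6*, against 112.7 and 319.8 RPKM in wild type. In this pair A had the larger mRNA change (3.11 and 2.18-fold for A and B) and B the larger FP change (1.42 and 3.15-fold).

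For *RPL6*, as for several other pairs, both copies changed by more in FP than in mRNA. *RPL6A* had 223.5 FP and 371.9 mRNA RPKM in *dbp1Δ::kanMX6*, against 58.4 and 199.9 RPKM in wild type. *RPL6B* had 198.7 FP and 238.8 mRNA RPKM in *dbp1Δ::kanMX6*, against 47.3 and 91.6 RPKM in wild type. The FP ratios were 3.83 and 4.20 and the mRNA ratios 1.86 and 2.61. *RPL21A* had the second largest FP change, 4.45-fold, with 95.7 FP and 438 mRNA RPKM in *dbp1Δ::kanMX6*, against 21.5 and 214.3 RPKM in wild type. *RPL21B* was 3.32-fold higher for FP and 3.10-fold for mRNA.

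*RPL18B* had the smallest FP change after *RPL15B* and *RPL29*, 1.17-fold, with 150.8 FP and 184.2 mRNA RPKM in *dbp1Δ::kanMX6*, against 128.5 and 100.2 RPKM in wild type. Its mRNA was 1.84-fold higher, so both of its changes stayed under 2-fold.

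For 14 pairs the copies are given here mainly by their range (*RPL1*, *RPL13*, *RPL14*, *RPL16*, *RPL17*, *RPL19*, *RPL20*, *RPL26*, *RPL27*, *RPL31*, *RPL33*, *RPL34*, *RPL36* and *RPL43*). Of these 28 genes, 23 were at least 2-fold higher for FP, between 1.57-fold (*RPL1A*) and 3.93-fold (*RPL31B*), and 26 for mRNA, between 1.70-fold (*RPL14A*) and 3.61-fold (*RPL33A*). None was 2-fold apart in TE. *RPL43* and *RPL33* were pairs with nearly equal mRNA but unequal footprints. *RPL43A* had 351.2 FP and 677.7 mRNA RPKM in *dbp1Δ::kanMX6*, against 144.4 and 234.7 RPKM in wild type, and *RPL43B* had 86.9 FP and 652.6 mRNA RPKM in *dbp1Δ::kanMX6*, against 51.9 and 240 RPKM in wild type. *RPL33A* had 506.6 FP and 557.3 mRNA RPKM in *dbp1Δ::kanMX6*, against 197.2 and 154.5 RPKM in wild type, and *RPL33B* had 162.1 FP and 436.9 mRNA RPKM in *dbp1Δ::kanMX6*, against 69.5 and 139.5 RPKM in wild type. In both pairs the A copy had the higher FP value in each genotype.

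Copies of a pair can be told apart only by reads that match one of them. A further 15 entries name both copies of a 60S pair. Of these, 14 are for pairs whose copies also have entries of their own, which covers 28 of the 77 genes. How reads were divided among joint and single entries is not stated. *RPL23* and *RPL43* have no joint entry although their copies are described as identical. How reads matching both copies were counted is not stated, so the separate values of these copies are uncertain too. The joint entries were 1.54 to 4.19-fold higher for FP in *dbp1Δ::kanMX6*, 13 of the 15 past 2-fold, and 1.59 to 4.21-fold higher for mRNA, 12 past 2-fold. Their median log2 changes were 1.45 for FP and 1.29 for mRNA.

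For mRNA, the joint entry had a median of 1.09 times (*dbp1Δ::kanMX6*) and 1.17 times (wild type) the summed RPKM of the separate copies. This held within 0.828 to 1.31 in *dbp1Δ::kanMX6* and within 0.813 to 2.32 in wild type, where *RPL19* was the highest. For FP, the medians were 0.891 in *dbp1Δ::kanMX6* and 0.820 in wild type, but single pairs ranged from 0.391 to 1.74 in *dbp1Δ::kanMX6* and from 0.330 to 1.64 in wild type. The joint *RPL9* entry had 298.6 FP RPKM in *dbp1Δ::kanMX6* and 92.4 in wild type, which is below the value of *RPL9B* alone in either genotype. The joint *RPL42* entry had 676.4 FP RPKM in *dbp1Δ::kanMX6* and 202.2 in wild type, again below the summed copies, and the joint *RPL15* entry had 999 in *dbp1Δ::kanMX6* and 649.5 in wild type, above them. The files do not say over which stretch each entry was counted, and in these pairs the FP value of a single copy is therefore uncertain as a value for the whole gene. Of the 8 pairs whose mRNA changes differed at least 1.5-fold, 6 of the 14 with a joint entry were among them (including *RPL8*, *RPL9*, *RPL14*, *RPL15* and *RPL21*), and 2 of the 19 without one (*RPP1* and *RPP2*). For FP these were 3 of 14 and 6 of 19.

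**Figure D4:**
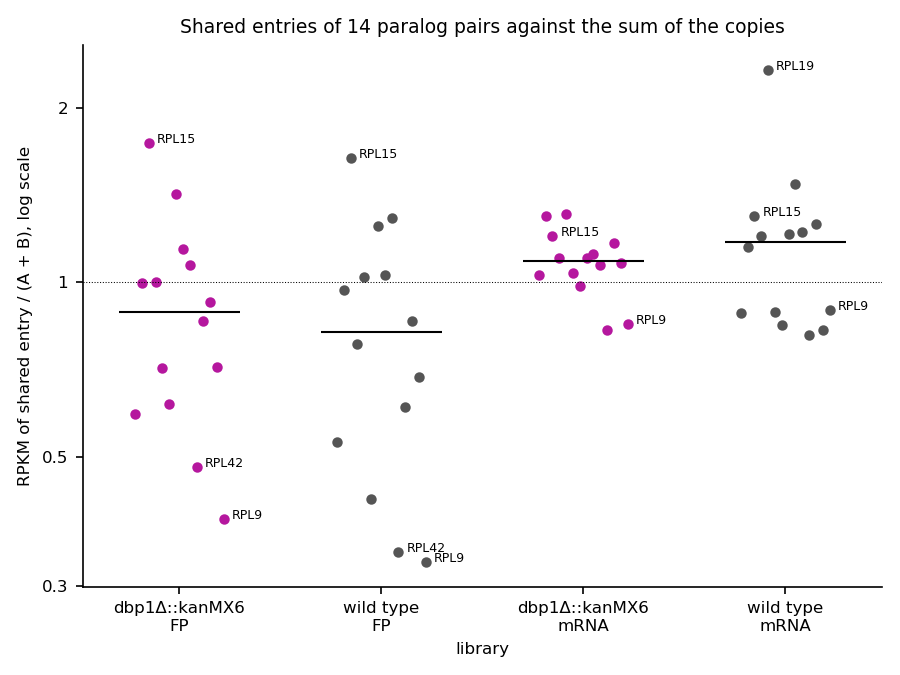
RPKM of the joint entry divided by the summed RPKM of the separate copies for 14 paralog pairs (points, log axis) in each library, with the median as a bar and 1 as a dotted line. The mRNA points lie between 0.813 and 1.48 apart from *RPL19* in wild type (2.32), while the footprint points spread from 0.330 (*RPL9*, wild type) to 1.74 (*RPL15*, *dbp1Δ::kanMX6*).

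TE was then compared. The median TE of the 60S genes was 0.436 in *dbp1Δ::kanMX6* and 0.455 in wild type, below that of all entries averaging 10 RPKM or more, 0.705 in *dbp1Δ::kanMX6* and 0.743 in wild type. In *dbp1Δ::kanMX6* 63 of the 77 genes, and in wild type 62, lay below the median entry. The 60S mRNAs were thus higher in level than the typical entry but lower in footprints relative to mRNA, in both genotypes. This was not particular to the 60S genes: the 56 genes of the small subunit had a median TE of 0.434 in *dbp1Δ::kanMX6* and 0.472 in wild type. A TE of at least 1 was seen for 3 genes in *dbp1Δ::kanMX6* (*RPL15B*, *RPL42A* and *RPP2B*) and for 8 in wild type (*RPL9B*, *RPL12A*, *RPL15B*, *RPL18B*, *RPL29*, *RPL33A*, *RPL42A* and *RPP2A*). Of these, *RPL9B*, *RPL15B* and *RPL42A* have joint entries with a TE of 0.287, 0.562 and 0.420 in *dbp1Δ::kanMX6* and 0.284, 0.944 and 0.308 in wild type. The spread of log2 TE across the genes was 0.74 (SD over 77 genes) in *dbp1Δ::kanMX6* and 0.95 in wild type.

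Between the genotypes the TE of the 60S genes changed little as a group. The median ratio was 0.909, with 30 genes higher and 47 lower in *dbp1Δ::kanMX6*. For all entries it was 0.953, with 2441 higher and 3011 lower. At least 2-fold higher were 5 genes (6.49% of the 60S genes, against 3.43% of entries), and 1 was at least 2-fold lower (1.3%, against 6.07% of entries). At 1.5-fold, 9 genes were higher (11.7%, against 10.7% of entries) and 7 lower (9.09%, against 18.0% of entries). The 5 were *RPL22B* (5.90), *RPP1A* (3.11), *RPL21A* (2.18), *RPL6A* (2.06) and *RPP2B* (2.03), and the next was *RPL24B* (1.69). The TE of *RPP1A* was 0.715 in *dbp1Δ::kanMX6* and 0.230 in wild type, and that of *RPP2B* 1.28 in *dbp1Δ::kanMX6* and 0.632 in wild type. *RPL37A*, at 0.295 in *dbp1Δ::kanMX6* and 0.646 in wild type, was 2.19-fold lower. *RPL12A* followed, at 0.658 in *dbp1Δ::kanMX6* and 1.25 in wild type, and then *RPL29*, at 0.666 in *dbp1Δ::kanMX6* and 1.18 in wild type.

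The joint entries gave a narrower range of TE changes, between 0.596-fold (*RPL15*) and 1.46-fold (*RPL21*), and none of the 15 was 2-fold apart. The joint *RPL21* entry had 337.6 FP and 860.7 mRNA RPKM in *dbp1Δ::kanMX6*, against 80.6 and 299 RPKM in wild type, so that its TE was 0.392 in *dbp1Δ::kanMX6* and 0.270 in wild type. *RPL22B*, *RPP1A*, *RPP2B*, *RPL6A* and *RPL37A* have no joint entry, and their TE changes have no such second value in the files.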

How the data were processed

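The deposited values were RPKM. Per the methods, the authors aligned each library to an SK1 assembly, and scaled the reads of an ORF to its length and to how many reads of the library were mapped. The submitters' processing notes name CASAVA, bcl2fastq 2.17 and Bowtie2. The annotation, the use of strand and the treatment of reads with several matches are not given in the sources used here. Samples were grouped by genotype and assay from the labels, 1 library each.

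TE was FP RPKM over mRNA RPKM. Ratios of *dbp1Δ::kanMX6* to wild type were taken with a pseudocount of 0 and no test, and counted at 2-fold (1.5-fold between copies of a pair). Background counts used entries averaging 10 RPKM or more over the 4 libraries. Depths were inferred from ORFs under 600 bases and values under 20 RPKM, of which 66.5% to 71% came out as whole reads and 7.84% to 15.8% would by chance. Reads of the 60S genes were computed with R64 lengths, which include any intron. They are upper figures for genes that have an intron or sequence shared with the other copy. Intervals are exact conditional (Clopper-Pearson) intervals at 95%. They cover counting error only, since PCR copies are not separate molecules. Scripts were tested on simulated data. Python 3.11.15, numpy 2.4.6, pandas 2.3.3 and scipy 1.17.1 were used.

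Symbols of all 77 genes matched R64, which served for names and gene order. No R64 coordinates are given, and no sequences are printed. A planned count of promoter motifs was not run. The genes, lists and comparisons were chosen with earlier results of these data known. Any 60S gene could be named, but 1 gene and its pair are not reported here by name, although they enter the counts and medians. Described in full were *RPL22*, the extremes of each change and of wild-type mRNA, the pairs with the largest and smallest gaps in mRNA change, and the stalk, 5S, single-copy and ubiquitin fusion genes, the tunnel exit genes being given mainly by range. Alternatives changed the pseudocount, scaling, threshold or filter, left out genes with shared entries, or used pair sums.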

Additional observations from a re-analysis of the deposited data

How the results depend on the processing

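The direction of the medians was kept under every alternative tried. The scaling set the size of the changes: the median log2 change was 0.93 for FP and 0.99 for mRNA after trimmed-mean scaling, and 0.94 and 0.98 after centring on the median entry, and the genes at least 2-fold higher numbered 33 and 37 after trimmed-mean scaling and 33 and 35 after centring, for FP and mRNA. Without genes that have a shared entry 37 genes (of 49) were 2-fold higher for FP. At a 1.5-fold threshold 9 genes were higher and 7 lower in TE, against 10.7% and 18.0% of entries. Without pairs that have a shared entry 2 pairs differed at least 1.5-fold in mRNA change. The median log2 mRNA change of pair sums was 1.32. Set against the median TE of all entries, the median TE of the 60S genes was 0.619 in *dbp1Δ::kanMX6* and 0.613 in wild type. The share of all entries at least 2-fold higher was 12.3% for FP and 11.5% for mRNA among those averaging 50 RPKM or more, and 4.19% for TE with no filter. The other 57 values recomputed for the 60S genes moved less than the limits set for them. No paired analysis was possible because each genotype and assay has 1 library, and for the same reason no library could be left out. Depth limits *RPL22B* most, with at most 6 inferred footprint reads in wild type.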

Other observations

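Genes that act on the 60S subunit outside its structure also had higher mRNA values in *dbp1Δ::kanMX6*. Of 7 chaperones dedicated to 60S proteins on their way to assembly, all 7 had higher mRNA and higher FP values. So did most entries, 3956 of 5551 for mRNA and 3746 of 5453 for FP. At least 2-fold higher were 6 of the 7 for mRNA (16.6% of all entries) and 2 for FP (15.1% of all entries). Their median log2 changes were 1.23 for mRNA and 0.52 for FP. *RRB1*, the chaperone of Rpl3, had 17.7 FP and 135.1 mRNA RPKM in *dbp1Δ::kanMX6*, against 10.4 and 38.6 RPKM in wild type. *SQT1*, the chaperone of Rpl10, had 36.7 FP and 83.6 mRNA RPKM in *dbp1Δ::kanMX6*, against 27.6 and 40.9 RPKM in wild type. TE was lower in *dbp1Δ::kanMX6* for all 7 (median log2 change -0.62, beside -0.07 for all entries). It was also lower for 3011 of 5452 entries. Several of the 7 had low FP values, such as *BCP1* with 9 RPKM in *dbp1Δ::kanMX6* and 8 in wild type.

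Of 15 genes of 60S export and late maturation, 15 had higher mRNA values and 14 higher FP values. Most entries were higher too, 3956 of 5551 for mRNA and 3746 of 5453 for FP. At least 2-fold higher were 10 (mRNA) and 5 (FP) of the 15 genes, against the same 16.6% and 15.1% of entries. The median log2 change was 1.33 for mRNA and 0.84 for FP. *NMD3*, the export adaptor of the subunit, had 15.7 FP and 78.8 mRNA RPKM in *dbp1Δ::kanMX6*, against 7.3 and 19 RPKM in wild type. *MTR2*, part of the general mRNA export receptor, was the one with a lower FP value, 28.1 RPKM in *dbp1Δ::kanMX6* and 55.1 RPKM in wild type.

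Regulators of ribosomal protein gene transcription did not share this size of change. For 15 such genes the median log2 change was 0.12 for mRNA and 0.05 for FP, below those of all entries (0.37 and 0.35), with 2 genes at least 2-fold higher for mRNA (16.6% of entries) and 1 for FP (15.1% of entries). *IFH1*, the coactivator that binds Fhl1 at these promoters, had 15 FP and 114 mRNA RPKM in *dbp1Δ::kanMX6*, against 7.5 and 51.6 RPKM in wild type. *TOD6*, a repressor of ribosome biogenesis genes, had 37.1 FP and 64 mRNA RPKM in *dbp1Δ::kanMX6*, against 26.8 and 30.7 RPKM in wild type. *FHL1* had 9.8 FP and 40 mRNA RPKM in *dbp1Δ::kanMX6*, against 17.6 and 31.3 RPKM in wild type, and *RAP1* had 90.7 and 76.1 RPKM, against 94.3 and 71.4 RPKM in wild type. These lists were chosen with earlier results of the data known, each value comes from 1 library per genotype, and the share of the stage markers in these differences was not tested.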
